A study of Mus musculus with 4 samples.

Results

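Astrocytes, the glial cells that wrap synapses and blood vessels, clear neurotransmitters from the space around synapses and are joined to one another by channels. Glutamate is taken up by the transporters encoded by Slc1a2 and Slc1a3, and glutamine synthetase (Glul) turns it into glutamine. The transporter encoded by Slc6a11 takes up GABA, and Slc4a4 encodes a sodium bicarbonate cotransporter that helps to set pH. Aqp4 encodes the water channel of astrocyte end-feet on vessels, and Gja1 and Gjb6 encode connexins 43 and 30, which form gap junctions between astrocytes. These 8 genes were chosen by name from the 33696 genes of the deposited matrices, and all 8 are described here. Their levels were followed by single-nucleus RNA sequencing in the cortex of 2 pregnant mice, taken at stage E13.5 of gestation, and 2 non-pregnant control mice. All 4 were wild-type female C57BL/6JRj mice of about 12 weeks, and 1 library was made from each. The labels do not name the area of cortex. They label each library as a replicate, which is taken here as 1 mouse.

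The matrices hold UMI counts (unique molecular identifiers, which tag each captured RNA molecule), with 97875766 to 116860425 UMIs per library. After filtering, 25033 nuclei remained, of which 21777 lay in clusters named from marker genes as 21 cell types. Each name means a resemblance by markers only. The 8 genes were used neither to build the clusters nor to name them. A single cluster resembled astrocytes, with 16 of 16 other astrocyte markers detected, and held 737 nuclei, 242 and 222 from pregnant and 130 and 143 from non-pregnant mice. Their median depth was 5857.5 and 6072.5 UMIs in the pregnant libraries, against 5739.5 and 8313 in the non-pregnant libraries. Summed over its astrocyte nuclei, each library held 818283 to 1531508 UMIs. A level is given as CPM, the gene's UMIs divided by all UMIs of the same nuclei and scaled to 1000000. CPM values of 2 genes are not set against each other, since UMIs from the 3' end are not scaled to length.

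Non-pregnant replicate 2 stood apart within the astrocytes. One of its 143 astrocyte nuclei held 174914 UMIs, 12.3% of the astrocyte UMIs of that library, while no other astrocyte nucleus of any library passed 37790. At a finer clustering this nucleus fell among nuclei that resembled fibroblasts. The same library held 207 CPM of Myoc, a gene of astrocytes at the brain surface, against 8.16 and 11.1 in the pregnant libraries and 0 in non-pregnant replicate 1. Of 26689 barcode sequences, 109 occurred in more than 1 library. Among the 737 astrocyte nuclei, 3 had such a barcode, and in none of these cases was the other nucleus an astrocyte.

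Pregnant and non-pregnant astrocytes held similar levels of most of the 8 genes, and none of the 8 passed the test. All 8 had enough counts to be tested. edgeR's quasi-likelihood test on the summed UMIs, adjusted over 10834 genes by the Benjamini-Hochberg method with a threshold of 0.05, called 0 of 8, against 2 of all genes (0.0185%). At an unadjusted p below 0.05 the same test took 1 of the 8, Gja1, and 572 of all genes, and DESeq2 also called 0 of 8. The median size of the log2 fold change, sign left aside, was 0.10 over the 8 genes and 0.18 over all genes tested, and 4 of the 8 were positive. The 2 called genes lay outside the 8 and are named here after their values were seen. Erbb4, which is also on the list of inhibitory neuron markers, fell in pregnant astrocytes, to 45.6 and 54.8 CPM against 158.9 and 178.5 CPM in non-pregnant astrocytes. Hbb-bs, a haemoglobin gene of red blood cells, rose to 27.9 and 40.5 CPM in pregnant astrocytes, against 2.44 and 7.05 CPM in non-pregnant astrocytes. The labels do not say how the mice were related or housed, so the p-values measure the spread between these 4 libraries, which may be technical.

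Gja1 was the one member whose groups did not overlap. It stood at 213.5 and 202.4 CPM in pregnant astrocytes, against 147.9 and 155.9 CPM in non-pregnant astrocytes. Both pregnant libraries were therefore above both non-pregnant ones, as were 18% of all genes tested. The group means were 208 ± 7.86 CPM in pregnant and 151.9 ± 5.68 CPM in non-pregnant astrocytes (SD, n = 2 each). The log2 fold change, pregnant relative to non-pregnant, was 0.44 (SE 0.146), with an unadjusted p of 0.00729 from edgeR and an adjusted p of 0.680. Leaving out the nucleus of 174914 UMIs gave 0.41, and leaving out all 11 astrocyte nuclei with a Myoc UMI gave 0.51, with edgeR adjusted p of 0.601 and 0.296. An exact permutation test with 2 mice against 2 cannot reach p below 0.05. The share of astrocyte nuclei with a Gja1 UMI showed the same order at matched depth. Had every nucleus been read to 2000 UMIs, 33.1% and 34.4% of pregnant astrocyte nuclei would hold a Gja1 UMI, against 24.5% and 23.4% of non-pregnant ones. At full depth the shares were 62.8% (Wilson 95% interval 56.6 to 68.7) and 68.0% (61.6 to 73.8) in pregnant astrocytes, against 53.1% (44.5 to 61.4) and 62.9% (54.8 to 70.4) in non-pregnant astrocytes. Replicate 1 of the pregnant mice and replicate 2 of the non-pregnant mice were alike at full depth.

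**Figure D1:**
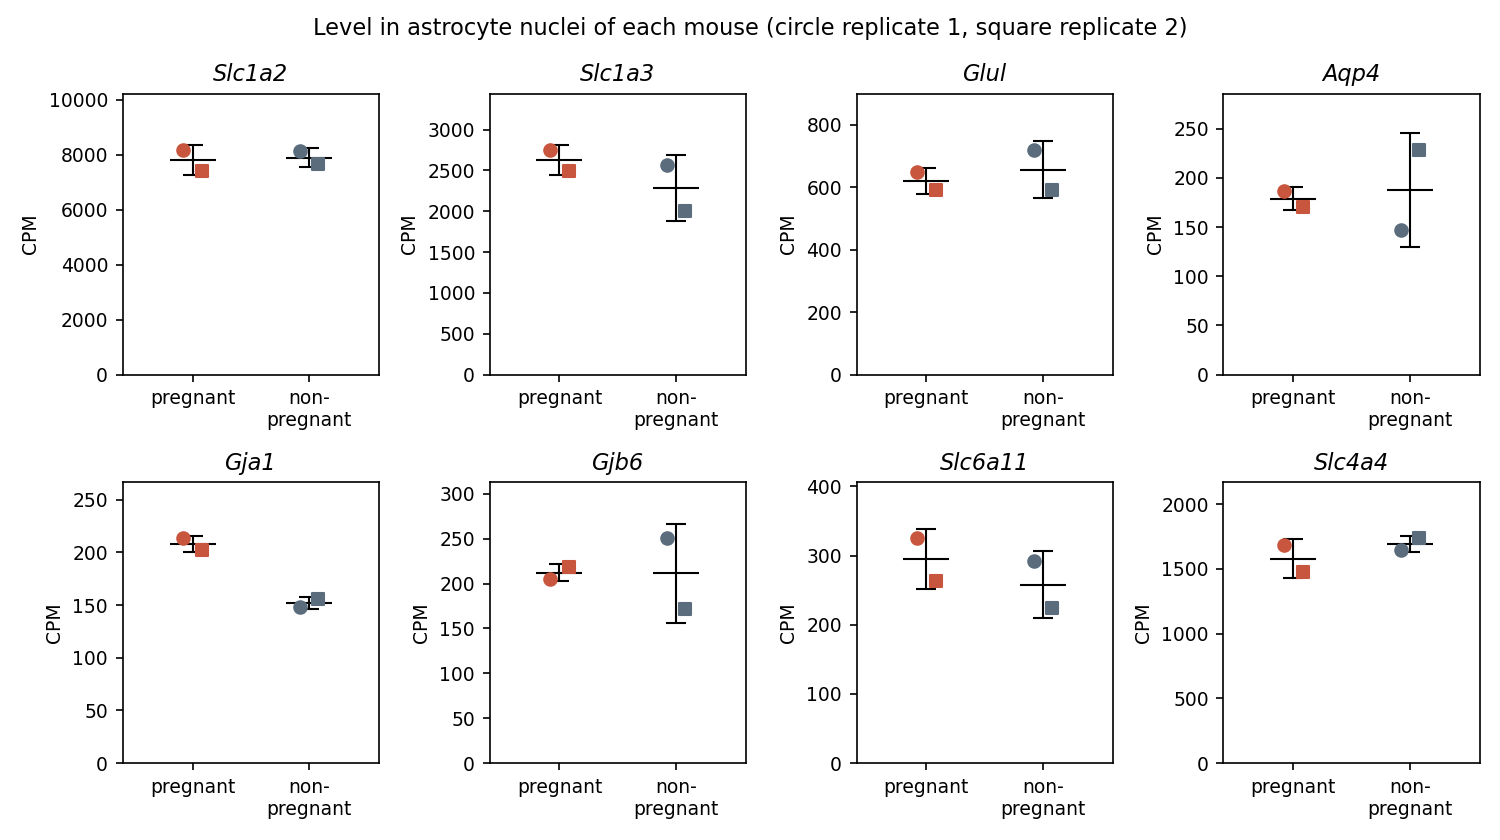
Level of each gene (CPM, linear axis from 0) in the astrocyte nuclei of each mouse, pregnant left and non-pregnant right, with circles for replicate 1, squares for replicate 2 and black bars for the mean ± SD of 2 mice. The pregnant mice lie at 202.4 and 213.5 CPM for Gja1 and the non-pregnant mice at 147.9 and 155.9, while for every other gene the groups overlap.

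Neither of the 2 glutamate transporters separated the groups. Slc1a2, which carries most of the glutamate uptake of the adult forebrain, stood at 8184 and 7419 CPM in pregnant astrocytes, against 8140 and 7650 CPM in non-pregnant astrocytes. Its groups overlapped, and the log2 fold change was -0.02 (SE 0.140). Slc1a3, the other glial glutamate transporter, stood at 2754 and 2496 CPM in pregnant astrocytes, against 2569 and 2003 CPM in non-pregnant astrocytes. Non-pregnant replicate 2 was the low library here, the other non-pregnant library lay between the pregnant ones, and the log2 fold change was 0.19 (SE 0.147). Without the nucleus of 174914 UMIs, which held Slc1a3 at 417 CPM, that library stood at 2227 CPM. Over all 13 alternatives the log2 fold change of Slc1a3 stayed positive, at 0.043 to 0.36. UMIs of Slc1a2 were found in all 737 astrocyte nuclei and those of Slc1a3 in all but 2, both in pregnant replicate 2.

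Glul, the enzyme that follows uptake, stood at 648.1 and 590.9 CPM in pregnant astrocytes, against 719.8 and 591.9 CPM in non-pregnant astrocytes. Its log2 fold change was -0.09 (SE 0.142), and 1 library of each group was near 591 CPM. Slc6a11, the GABA transporter, stood at 325.1 and 263.8 CPM in pregnant astrocytes, against 292.1 and 224.3 CPM in non-pregnant astrocytes. The libraries of the 2 groups alternated in rank, and the log2 fold change was 0.19 (SE 0.161). Slc4a4, the bicarbonate cotransporter, stood at 1684 and 1475 CPM in pregnant astrocytes, against 1647 and 1736 CPM in non-pregnant astrocytes. The pregnant replicates enclosed non-pregnant replicate 1, and the log2 fold change was -0.11 (SE 0.140).

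Gjb6, the other connexin gene, did not share the order of Gja1. It stood at 205.4 and 218.7 CPM in pregnant astrocytes, against 250.5 and 172.1 CPM in non-pregnant astrocytes. The non-pregnant libraries enclosed the pregnant ones, and the log2 fold change was 0.01 (SE 0.163). Its sign turned under several settings, for example to -0.07 without the nucleus of 174914 UMIs. At 2000 UMIs per nucleus, 32.2% and 36.4% of pregnant astrocyte nuclei would hold a Gjb6 UMI, against 39.2% and 29.7% of non-pregnant ones.

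Aqp4 depended on few nuclei of 1 library. It stood at 187.0 and 170.4 CPM in pregnant astrocytes, against 146.6 and 228.6 CPM in non-pregnant astrocytes, a log2 fold change of -0.10 (SE 0.205). Of the 324 Aqp4 UMIs of non-pregnant replicate 2, 185 lay in the 7 of its 143 astrocyte nuclei that held a Myoc UMI. Those 7 nuclei stood at 712 CPM of Aqp4 and the other 136 at 120 CPM. The pregnant libraries held 2 such nuclei each, with 23 and 11 Aqp4 UMIs, and non-pregnant replicate 1 held none. Without the nuclei with a Myoc UMI, Aqp4 stood at 172.8 and 164.1 CPM in pregnant astrocytes, against 146.6 and 120.1 CPM in non-pregnant astrocytes. The log2 fold change then turned to 0.31, with an edgeR adjusted p of 0.740. This leaving-out was chosen after the data had been seen. The nucleus of 174914 UMIs held 55 of the 185 UMIs, at 314 CPM, and the log2 fold change without it alone was -0.07.

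For the 7 genes other than Gja1, edgeR's test in astrocytes gave an adjusted p of 0.999 each. Read at 2000 UMIs, an astrocyte nucleus would hold UMIs of 4.99 and 4.95 of the 8 genes on average in pregnant mice, against 4.96 and 4.70 in non-pregnant mice. At that depth 1 and 3 pregnant astrocyte nuclei were too shallow to be used, and 0 non-pregnant ones. The same average was 0.778 and 0.752 genes in pregnant excitatory neurons, against 0.793 and 0.779 in non-pregnant excitatory neurons.

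Among 14 cell types, each of the 8 genes was highest in astrocytes, and in every gene the lowest astrocyte library lay above the highest library of the next type. The 14 types compared were those with 50 or more nuclei per library. Levels below are means ± SD over all 4 libraries, as a description with no test. Gja1, Gjb6 and Aqp4 were low in the other 13 types. Gjb6 stood at 212 ± 32.5 CPM in astrocytes and at 1.61 ± 1.09 CPM in microglia, the next type, whose range overlapped those of precursors and oligodendrocytes. Gja1 stood at 180 ± 32.9 CPM in astrocytes and at 4.65 ± 5.23 CPM in microglia, a value that rested on the pregnant libraries, with 6.5 and 11.2 CPM (4 and 9 UMIs) against 0 and 0.9 CPM (0 and 1 UMI) in the non-pregnant ones. Aqp4 stood at 183 ± 34.5 CPM in astrocytes and at 10.2 ± 3.38 CPM in oligodendrocyte precursors, just above the range of microglia, the next type.

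Slc1a3 and Glul were also held by other glia. Slc1a3 stood at 2455 ± 320 CPM in astrocytes, 354 ± 25.1 in microglia, 317 ± 25.6 in oligodendrocyte precursors and 137 ± 9.16 in oligodendrocytes. The ranges of microglia and precursors overlapped, and both lay above oligodendrocytes. Among neurons, the Lamp5 interneurons stood apart at 26.7 ± 6.93 CPM of Slc1a3, above the range of all other neuron types, whose means were at most 3.86 CPM. Glul stood at 638 ± 60.9 CPM in astrocytes, 307 ± 43.8 in oligodendrocytes, 203 ± 36.2 in microglia and 32.5 ± 3.02 in precursors, with no overlap between neighbours in this order. Per 100 Slc1a3 UMIs, astrocytes held 319 Slc1a2 UMIs, precursors 118, oligodendrocytes 40.3 and microglia 19.6, so the 2 transporters were not present in 1 ratio across glia.

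Slc1a2, Slc4a4 and Slc6a11 were also held by neurons. Slc1a2 stood at 7848 ± 375 CPM in astrocytes and at 929 ± 74.9 in L5/6 NP neurons, near-projecting excitatory cells of the deep layers. L6 CT neurons, which project to the thalamus, stood at 795 ± 67.8 CPM and overlapped L5/6 NP. The intratelencephalic (IT) neurons followed at 624 ± 40.1 CPM in L4/5, 521 ± 38.3 in L5 and 281 ± 26.3 in L2/3, with precursors at 374 ± 31.8 between the last 2 and no overlap among these. Interneurons marked by Pvalb were the lowest, at 31.6 ± 14.7 CPM of Slc1a2, and overlapped those marked by Sst. For Slc4a4 the order of neurons was another one. It stood at 1636 ± 113 CPM in astrocytes and at 342 ± 23.8 in Pvalb interneurons, above Vip interneurons at 153 ± 13.6 and L2/3 IT neurons at 148 ± 6.35, which overlapped. Oligodendrocytes, at 6.27 ± 2.43 CPM, and microglia, at 8.46 ± 3.80 CPM, were the lowest for Slc4a4. Slc6a11 stood at 276 ± 42.8 CPM in astrocytes and at 35.8 ± 2.84 in L5/6 NP neurons, apart from L6 CT, Lamp5, precursors and Vip, which lay between 18.99 and 20.5 CPM and overlapped. Microglia held 0 Slc6a11 UMIs in all 4 libraries.

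**Figure D2:**
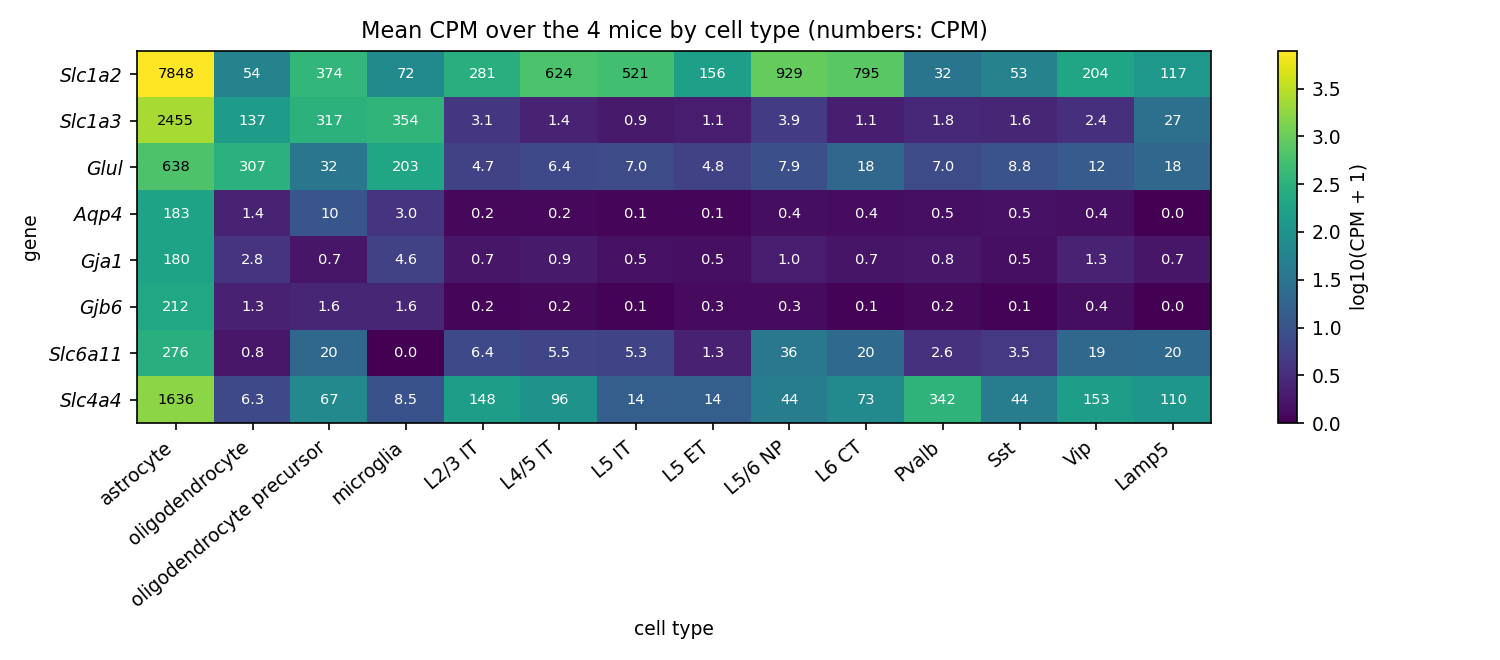
Mean level over the 4 mice of each gene (rows) in the 14 cell types with 50 or more nuclei per library (columns), with CPM printed in each cell and colour on a log10(CPM + 1) scale. The astrocyte column is highest in every row, Gjb6 reaches 1.61 CPM elsewhere, and Slc1a2 reaches 929 CPM in L5/6 NP neurons.

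Small vascular clusters fell under the limit of 50 nuclei and are given as values only. The cluster that resembled fibroblasts held 9 and 18 pregnant and 5 and 14 non-pregnant nuclei. Gjb6 stood there at 326.2 and 98.4 CPM in pregnant libraries, against 149.3 and 195.0 CPM in non-pregnant libraries, and Gja1 at 142.7 and 189.7 CPM against 49.8 and 48.8 CPM. Means ± SD over all 4 libraries in that cluster were 947 ± 448 CPM for Slc1a3, 579 ± 393 for Slc4a4 and 419 ± 178.5 for Glul. These means lay above those of every type but astrocytes among the types with 50 or more nuclei per library. Endothelial nuclei, 52 and 39 from pregnant and 19 and 22 from non-pregnant mice, held Gja1 at 47.7 and 74.8 CPM, against 39.8 and 32.5 CPM. Their mean for Glul over all 4 libraries was 234 ± 130 CPM. So few nuclei allow no comparison of the groups.

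The genes whose pattern over 21 cell types was most like the mean of the 8 were sought among 9423 genes with at least 10 CPM in astrocytes. Mlc1 (a membrane protein of astrocyte end-feet) had a Pearson r of 0.940, the RNA A330032P22Rik 0.937, Sdc4 (a membrane proteoglycan) 0.931 and Acsbg1 (a fatty acid activating enzyme) 0.930, and 1 further gene among the first 5 was a predicted gene. The 8 genes themselves belong to that mean, and the points share libraries and depth. Mlc1 and Acsbg1 are on the list of astrocyte markers that named the cluster.

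Summed over all kept nuclei of a library, as a bulk sample would read them, 2 of the 8 genes rose in pregnancy. edgeR's quasi-likelihood test called 252 of 20917 genes there (1.2%), 149 higher and 103 lower. Slc1a3 rose to 53.1 and 54.2 CPM in pregnant libraries, against 35.4 and 38.6 CPM in non-pregnant libraries, a log2 fold change of 0.52 (SE 0.0750, edgeR adjusted p = 0.0115). Gja1 rose to 4.35 and 5.22 CPM in pregnant libraries, against 2.00 and 2.71 CPM in non-pregnant libraries, a log2 fold change of 1.00 (SE 0.169, edgeR adjusted p = 0.0255). In 6 of the 8 genes, these 2 included, both pregnant libraries were above both non-pregnant ones, as were 23.3% of all genes tested. More cells of a type and more RNA per cell cannot be told apart in such sums. The other genes gave 0.59 for Gjb6 (SE 0.144, edgeR adjusted p = 0.0962), 0.51 for Aqp4, 0.35 for Slc6a11, 0.24 for Glul, 0.01 for Slc1a2 and -0.04 for Slc4a4, none past the threshold. Both calls were lost without either pregnant library, in fits of 1 library against 2 that assume the lone library to vary like the others. The log2 fold changes stayed at 0.49 and 0.55 for Slc1a3 and at 1.09 and 0.91 for Gja1. Without non-pregnant replicate 1 they were 0.46 for Slc1a3 and 0.80 for Gja1, and without non-pregnant replicate 2 they were 0.58 and 1.24. More of the 8 genes were called in these last fits, where the share of all genes called was not counted.

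**Figure D3:**
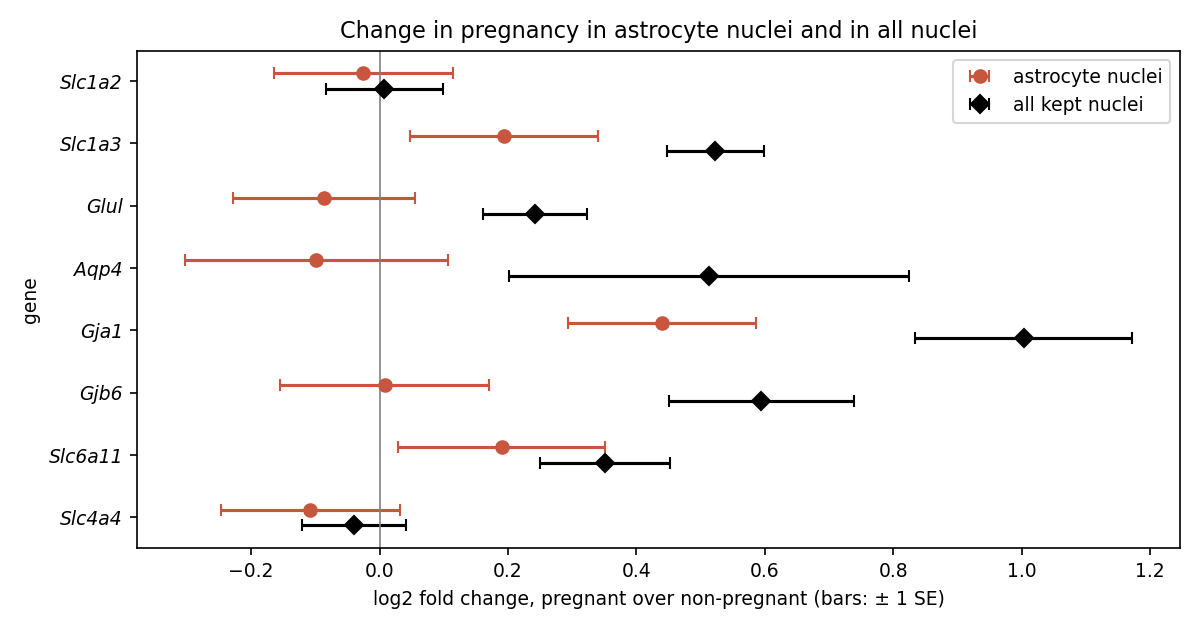
Log2 fold change (pregnant relative to non-pregnant) of each gene in astrocyte nuclei (circles) and in all kept nuclei (diamonds), with bars of ± 1 SE from edgeR. Slc1a3 lies at 0.19 in astrocytes and 0.52 in all nuclei, and Gja1 at 0.44 and 1.00, while Slc1a2 and Slc4a4 lie near 0 in both.

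The number of astrocyte nuclei moved with these sums. Astrocytes made up 3.89% and 3.49% of kept nuclei in pregnant libraries, against 2.00% and 2.40% in non-pregnant libraries. edgeR's quasi-likelihood test on nuclei per type gave a log2 fold change of 0.75 (SE 0.225, adjusted p = 0.00749 over 21 types), in a comparison that called 8 of 21 types (38.1%). The call was lost without any 1 of the 4 libraries, at edgeR adjusted p of 0.0561 to 0.182 and a log2 fold change of 0.62 to 0.88. It was also lost with the replicate number as a block, at an unchanged 0.75 (edgeR adjusted p = 0.0694). In each library the astrocytes held 66.8% to 78.4% of its Slc1a3 UMIs. They held 74.2% and 64.3% of the Gja1 UMIs in pregnant libraries, against 68.0% and 76.2% in non-pregnant libraries. For Slc1a2 the astrocytes held only 24.0% and 25.8% of the UMIs in pregnant and 14.9% and 21.1% in non-pregnant libraries. Named excitatory neurons held 60.1% and 58.7% of Slc1a2 in pregnant and 77.6% and 73.0% in non-pregnant libraries. Nuclei in unnamed clusters, some of which scored highest as excitatory neurons, held 12.8% and 11.6% against 4.52% and 3.27%. Slc4a4 was spread likewise, with 20.2% and 19.02% of its UMIs in pregnant and 12.6% and 16.5% in non-pregnant astrocytes. Nuclei in unnamed clusters numbered 1232 and 1415 in pregnant and 340 and 269 in non-pregnant libraries, and held 20.4% and 19.5% of the Slc4a4 UMIs in pregnant and 5.22% and 2.91% in non-pregnant libraries. The part of cell numbers in the whole-library changes was not tested.

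**Figure D4:**
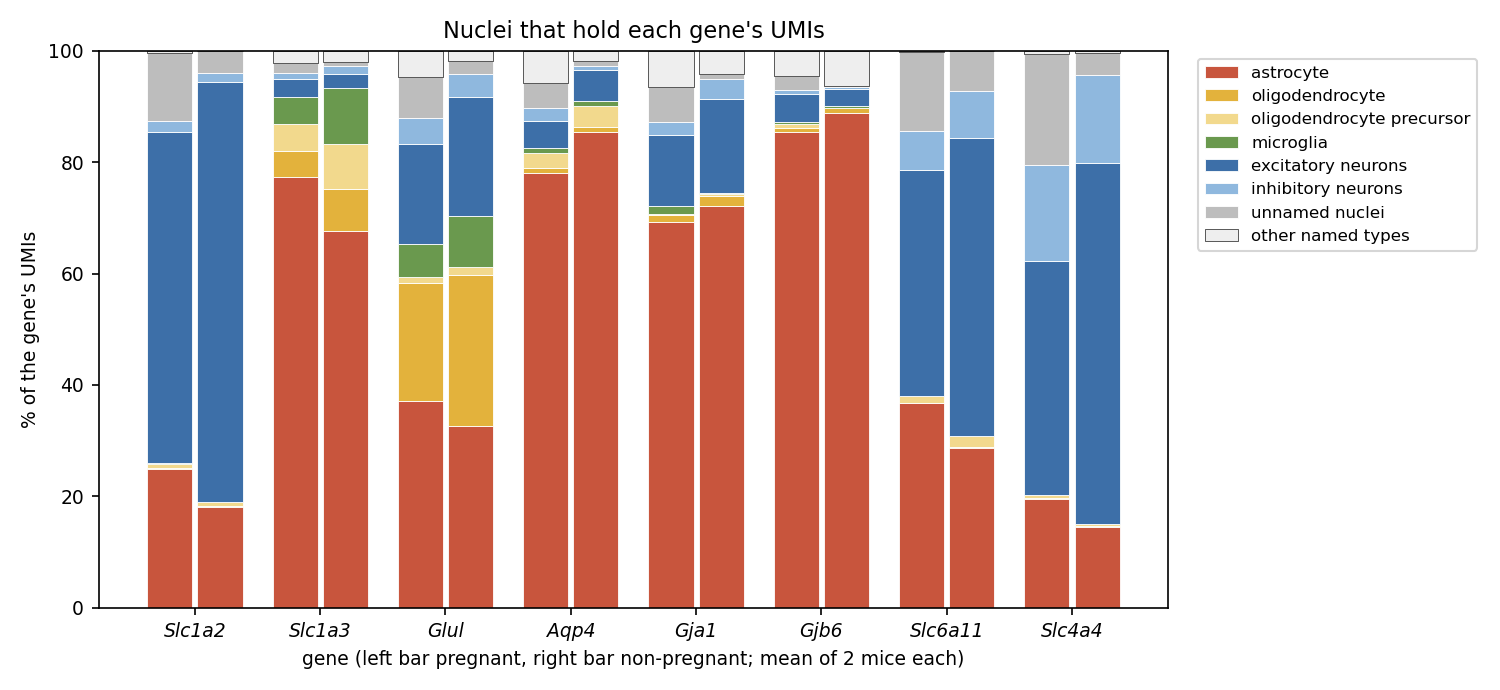
Percentage of each gene's UMIs that lay in nuclei of each kind (stacked, 0 to 100%), with the mean of 2 pregnant mice in the left bar and of 2 non-pregnant mice in the right bar. Astrocytes held 85.5% of Gjb6 UMIs in pregnant and 88.9% in non-pregnant libraries, but 24.9% and 18.0% of Slc1a2 UMIs, most of which lay in excitatory neurons.

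Excitatory neurons of named clusters were used as nuclei that should hold little of the connexin, Aqp4 and Slc1a3 transcripts. They numbered 3143 and 3128 in pregnant and 4275 and 3900 in non-pregnant libraries. Some unnamed clusters also scored highest as excitatory neurons and are left out, so these are not all such nuclei. The largest held 265 and 197 pregnant and 218 and 230 non-pregnant nuclei. The next held 461 and 334 against 50 and 0, and another held 140 and 226 against 0 and 0. The named neurons held the transcripts at low levels, and the levels were higher in the pregnant mice. Slc1a3 stood at 2.38 and 3.01 CPM in pregnant excitatory neurons (148 and 180 UMIs), against 1.59 and 0.777 CPM in non-pregnant ones (111 and 66 UMIs). Gjb6 stood at 0.258 and 0.368 CPM in pregnant excitatory neurons (16 and 22 UMIs), against 0.129 and 0.0589 CPM in non-pregnant ones (9 and 5 UMIs). Gja1 stood at 0.805 and 1.10 CPM in pregnant excitatory neurons, against 0.531 and 0.448 CPM in non-pregnant ones. Aqp4 stood at 0.209 and 0.352 CPM in pregnant excitatory neurons, against 0.172 and 0.130 CPM in non-pregnant ones. Both pregnant libraries were above both non-pregnant ones in these 4 genes and in Glul and Slc6a11, 6 of the 8, as they were in 22.6% of all genes tested. Within these neurons edgeR's quasi-likelihood test called 0 of the 8 genes, against 235 of 19012 genes in all (1.24%). At an unadjusted p below 0.05 the test took 5 of the 8 and 2386 of all 19012 genes. Its log2 fold changes were 1.19 for Slc1a3 (edgeR adjusted p = 0.160), 1.75 for Gjb6 (0.135), 0.96 for Gja1 (0.137), 0.30 for Glul (0.360) and -0.36 for Slc4a4 (0.0965).

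The excitatory neurons pool subtypes whose numbers differed between the groups. L2/3 IT neurons made up 862 and 1168 of them in pregnant libraries, against 1716 and 1626 in non-pregnant libraries, and L5 ET neurons 302 and 254 against 198 and 128. An unnamed cluster that scored nearest to L2/3 IT is not counted here. It held 461 and 334 pregnant against 50 and 0 non-pregnant nuclei. Within single subtypes the log2 fold change of Slc4a4 was -0.12 (L2/3 IT), -0.10 (L4/5 IT), -0.16 (L5 IT) and -0.26 (L6 CT), but 0.27 (L5 ET) and 0.45 (L5/6 NP), none called by edgeR. Slc1a3 stood at 4.92 and 4.49 CPM in pregnant L2/3 IT neurons, against 2.22 and 0.971 CPM in non-pregnant ones. In L4/5 IT neurons it stood at 2.17 and 1.46 CPM in pregnant mice, against 1.38 and 0.773 CPM in non-pregnant mice. The order of the groups was the same within both subtypes. Group means ± SD of Slc1a3, pregnant against non-pregnant, were 1.24 ± 0.62 against 0.55 ± 0.19 CPM in L5 IT. They were 1.84 ± 1.11 against 0.29 ± 0.12 CPM in L5 ET and 6.87 ± 6.34 against 0.86 ± 0.21 CPM in L5/6 NP. In L6 CT they were 1.16 ± 0.47 against 1.13 ± 0.92 CPM. Each of these subtypes held 19 to 40 Slc1a3 UMIs over all libraries. The share of all genes with the same order within a subtype was not counted. The part of the makeup of the pool in its values was not tested.

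**Figure D5:**
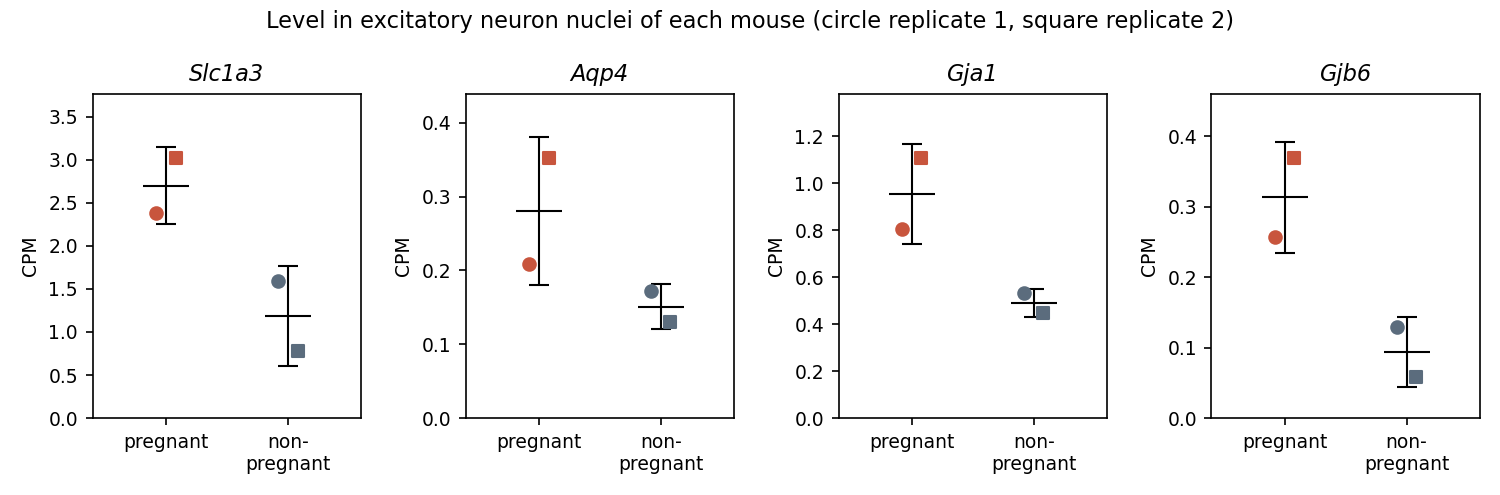
Level of Slc1a3, Aqp4, Gja1 and Gjb6 (CPM, linear axes from 0) in the excitatory neuron nuclei of each mouse, pregnant left and non-pregnant right, with circles for replicate 1, squares for replicate 2 and black bars for the mean ± SD of 2 mice. All values are below 3.1 CPM, and both pregnant mice lie above both non-pregnant mice in each panel.

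The change in astrocytes was set against that in excitatory neurons by a test of the interaction, with the library as a block. edgeR called 2 of the 8 genes, against 127 of 18834 genes in all (0.674%), of which 20 were higher and 107 lower. For Slc1a3 the log2 fold change in astrocytes minus that in excitatory neurons was -1.03 (SE 0.193, edgeR adjusted p = 2.43e-04). For Gjb6 it was -1.70 (SE 0.427, edgeR adjusted p = 0.0170). The difference for Slc1a3 thus set 0.19 in astrocytes against 1.19 in neurons, where the level was below 3.1 CPM in every library. Without non-pregnant replicate 1, 1 of the 8 genes was called (Slc1a3), and without each of the other 3 libraries 0 were. The differences in these 4 fits ran from -1.39 to -0.69 for Slc1a3 and from -2.03 to -1.46 for Gjb6. Without the nucleus of 174914 UMIs the difference was -1.10 for Slc1a3, with an adjusted p from edgeR of 0.0906, and -1.77 for Gjb6, with 0.0182. No correction for free RNA was made here, and its part in the neuronal values was not tested. The summed level of the 16 other astrocyte markers in excitatory neurons was 167 and 153 CPM in pregnant and 128 and 141 CPM in non-pregnant libraries. Both pregnant sums were higher, as they also were for some lists of other types. These included L5 ET, a subtype within this pool (114 and 105 against 44.1 and 43.3 CPM). Lists of precursors (1160 and 1133 against 1080 and 944 CPM) and newly formed oligodendrocytes (87.6 and 92.3 against 66.6 and 81.1 CPM) did likewise. For oligodendrocytes (103 and 106 against 115 and 79.8 CPM) and microglia (40.1 and 42.8 against 41.4 and 41.15 CPM) the groups overlapped. The list of excitatory neuron markers was lower in both pregnant libraries, at 1387 and 1478 against 1728 and 1638 CPM. Per 100 Slc1a3 UMIs, astrocytes held 7.54 Gja1 and 8.48 Gjb6 UMIs over all libraries, while excitatory neurons held 37.8 Gja1 and 10.3 Gjb6 UMIs.

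At 2000 UMIs per nucleus the gap between the types was wide. A Gjb6 UMI would be held by 0.0648% and 0.0799% of pregnant excitatory neurons, against 0.0326% and 0.0160% of non-pregnant ones. For Slc1a3 these shares were 0.576% and 0.560% in pregnant and 0.296% and 0.169% in non-pregnant excitatory neurons, while astrocytes stood between 97.3% and 98.95% in every library. At full depth an Slc1a3 UMI was found in 3.60% and 3.55% of pregnant excitatory neurons, with a median of 16850 and 16316 UMIs, against 2.01% and 1.64% of non-pregnant ones, with a median of 14621 and 19838 UMIs. For Aqp4 the full-depth shares were 0.414% and 0.543% in pregnant and 0.257% and 0.282% in non-pregnant excitatory neurons.

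In the 13 other cell types of that size, 56 tests of the 8 genes had enough counts, and edgeR called 0 of them. The share of all genes called was 0.144% in oligodendrocytes, 0.147% in precursors and 0.677% in microglia. For the IT neurons it was 0.0121% in L2/3, 0.0933% in L4/5 and 1.01% in L5. The remaining excitatory types had 0.926% (L6 CT), 0.897% (L5/6 NP) and 3.11% (L5 ET, neurons that project outside the telencephalon). Among interneurons it was 0.368% in Pvalb, 0.0337% in Sst, 0.122% in Vip and 0.295% in Lamp5. Aqp4 and Gjb6 had enough counts in 0 of the 13 types. Slc1a2 was tested in all 13 and ran from -0.18 to 0.67 on the log2 scale, the highest being in Lamp5 interneurons. There it stood at 175.8 and 109.9 CPM in pregnant mice against 99.1 and 81.4 CPM in non-pregnant mice (edgeR adjusted p = 0.325). With no filter on low counts Slc1a2 was called in Lamp5 (0.67, edgeR adjusted p = 0.0176). With the replicate block it was called too (0.65, edgeR adjusted p = 0.0255). In L2/3 IT neurons Slc1a3 had a log2 fold change of 1.54 (edgeR adjusted p = 0.368). With no filter on low counts it was called there (1.53, edgeR adjusted p = 2.00e-06). So were Slc1a3 in L5 ET neurons (2.59) and Gja1 in L4/5 IT neurons (1.44). The shares of all genes given above belong to the filtered fits, and those with no filter or with the block were not counted in these types. In astrocytes, dropping the filter raised the count of all genes called from 2 to 49. In microglia, where Slc1a3 stood at 383.1 and 332.9 CPM in pregnant and 366.6 and 333.2 CPM in non-pregnant mice, its log2 fold change was 0.01, and in oligodendrocyte precursors it was -0.23.

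The genes around the 8 in astrocyte physiology held 0 genes called by edgeR in astrocytes in any of 9 lists, against 0.0185% of all genes. Of 17 further genes of transmitter uptake and metabolism, 15 were tested, and 6 of these were positive, with a median log2 fold change of -0.04. The smallest p among them was that of Slc1a4, a neutral amino acid transporter, at 77.5 and 94.7 CPM in pregnant and 72.1 and 63.5 CPM in non-pregnant astrocytes (log2 fold change 0.34, edgeR adjusted p = 0.952). Of 11 transmitter receptors, 9 were tested and 6 were positive, with a median of 0.08. Adra1a, an adrenergic receptor, stood at 111.5 and 95.98 CPM in pregnant and 76.99 and 83.9 CPM in non-pregnant astrocytes (0.35, edgeR adjusted p = 0.937). In Slc1a4 and Adra1a both pregnant libraries were above both non-pregnant ones, as were 18% of all 10834 genes tested.

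Of 12 genes of potassium, pH and volume, 11 were tested, with 5 positive and a median of -0.02. The end-foot scaffold, which anchors the water channel, had 7 of 7 genes tested, 3 positive and a median of -0.04. Its dystrophin gene Dmd stood at 1013 and 1040 CPM in pregnant and 1126 and 1075 CPM in non-pregnant astrocytes (-0.11, edgeR adjusted p = 0.999). Of 7 gap junction partners 3 were tested and 0 were positive, and the scaffold gene Tjp1 stood at 833.1 and 720.2 CPM in pregnant and 876.2 and 808.4 CPM in non-pregnant astrocytes (-0.12, edgeR adjusted p = 0.999). Of 13 genes of the reactive state 3 were tested and 0 were positive, with a median of -0.69. Cd44, a cell surface receptor, stood at 7.48 and 7.18 CPM in pregnant and 7.33 and 21.9 CPM in non-pregnant astrocytes (-1.12, edgeR adjusted p = 0.926). Gfap, the intermediate filament of reactive and surface astrocytes, stood at 25.8 and 38.5 CPM in pregnant and 17.1 and 78.3 CPM in non-pregnant astrocytes (-0.69, edgeR adjusted p = 0.999). In both genes non-pregnant replicate 2 was the high library. Of the lists for astrocytes by place, 5 of 6 genes for the pial surface or white matter were tested, 0 positive, with a median of -0.46. This list, which shares Gfap with the reactive one, summed to 94.5 and 94.0 CPM in pregnant and 53.8 and 381.6 CPM in non-pregnant astrocytes. For the telencephalon 4 of 4 genes were tested, 1 positive, with a median of -0.11, and for regions outside it 1 of 7, at -0.16. The median over all 10834 genes tested was 0.00263.

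Of 26 marker lists of other cell types, summed over the astrocyte nuclei, 4 were higher in both pregnant libraries than in both non-pregnant ones and 8 were lower, while for 14 the groups overlapped. Of all single genes tested in astrocytes, 18% were higher in both and 15.1% lower in both. The highest sum was that of L4/5 IT markers, at 1996 and 1753 CPM in pregnant and 2054 and 1887 CPM in non-pregnant astrocytes. In excitatory neurons this list summed to less, at 1062 and 848 CPM in pregnant and 836 and 920 CPM in non-pregnant libraries. Markers of newly formed oligodendrocytes, L6 CT neurons and thalamic neurons also passed 300 CPM in every library. The list of newly formed oligodendrocytes shares Itpr2 with that of astrocyte receptors and Tcf7l2 with that of thalamic neurons. Thalamic markers summed to 10.5 to 13.8 CPM in excitatory neurons, and L6 CT markers to 561 to 846 CPM. How much of each sum came from other cells was not tested. Oligodendrocyte markers, all 10 detected, summed to 132.6 and 145.6 CPM in pregnant and 206.5 and 194.7 CPM in non-pregnant astrocytes. Inhibitory neuron markers, all 5 detected, summed to 76.8 and 85.5 CPM in pregnant and 193.1 and 210.9 CPM in non-pregnant astrocytes. That list holds Erbb4, which alone stood at 45.6 and 54.8 against 158.9 and 178.5 CPM. Erbb4 thus made up most of each sum and most of the gap between the groups. Endothelial markers, 1 of 9 at 0 in every library, summed to 31.3 and 9.14 CPM in pregnant and 6.11 and 7.05 CPM in non-pregnant astrocytes. Fibroblast markers, 2 of 7 at 0 in every library, summed to 16.3 and 10.4 CPM in pregnant and 12.2 and 19.05 CPM in non-pregnant astrocytes. Red blood cell markers, 5 of 5 detected, summed to 55.8 and 67.9 CPM in pregnant and 8.55 and 16.2 CPM in non-pregnant astrocytes. In excitatory neurons the same list, which holds Hbb-bs, summed to 21.4 and 17.8 CPM in pregnant and 8.44 and 8.03 CPM in non-pregnant libraries. The part of RNA from other cells in the levels of the 8 genes was not tested.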

How the data were processed

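Nuclei of microdissected cortex were profiled with 10x GEM-X 3' v4 chemistry and read on an AVITI24 instrument, per the labels' protocols. The deposited matrices hold whole-number UMI counts per gene and barcode, made with Cell Ranger 10.0.0 and genome build GRCm39 per the submitters' processing notes. The 4 libraries held 26816 barcodes and 423916014 UMIs. Nuclei with under 500 genes or over 5% mitochondrial UMIs were left out, as was the top 5% of each library by a simulated-doublet score, so doublets were only partly removed. Leiden clustering (scanpy 1.11.5, leidenalg 0.10.2, 2000 variable genes, 40 components, 20 neighbours, resolution 1) gave 38 clusters, of which 28 were named from 27 marker lists, with thresholds set after the clusters were seen. The members and all lists were chosen with earlier results of these data known.

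UMIs were summed per mouse and cell type and tested with edgeR 4.0.16 (quasi-likelihood, TMM, minimum count 10, Benjamini-Hochberg adjustment), with DESeq2 1.42.0 as an alternative. The tests were checked on simulated data. Shares at 2000 UMIs are each nucleus's exact chance of keeping a UMI when drawn down to that depth. Intervals cover counting error only. Named genes were all 8 members, up to 4 genes per list with the smallest p (the first 1 or 2 are printed), and the 5 genes most like the members' mean.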

Additional observations from a re-analysis of the deposited data

Results flagged for a closer look

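For 2 genes the change in astrocytes differed from that in excitatory neurons by the interaction test. For Slc1a3 the difference of astrocytes minus excitatory neurons was -1.03 on the log2 scale, and its edgeR adjusted p over the 7 alternatives ran from 3.68e-05 to 0.871. For Gjb6 it was -1.70, with an edgeR adjusted p of 0.0151 to 0.586 over the same 7. The differences in these fits ran from -1.39 to -0.69 for Slc1a3 and from -2.03 to -1.46 for Gjb6. The neuronal levels behind them were below 3.1 CPM of Slc1a3 and below 0.37 CPM of Gjb6 in every library.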

How the results depend on the processing

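In astrocytes 0 of the 8 genes were called under each of the 13 alternatives, which were other size factors, no filter, the replicate block, 4 fits without 1 library each, DESeq2, finer clusters, the members among the variable genes, no doublet filter, and 2 leavings-out of nuclei chosen after seeing the data. The alternatives gave 11 distinct fits, since the members among the variable genes left the astrocyte values as they were, and finer clusters gave the same values as leaving out the nucleus above 100000 UMIs. Gjb6 turned to -0.00135 with RLE size factors, -0.073 with finer clusters, -0.051 with no doublet filter, -0.092 without nuclei holding a Myoc UMI and -0.073 without the nucleus above 100000 UMIs, and Aqp4 turned to 0.31 without the Myoc nuclei. Leaving out 1 library gave ranges of -0.13 to 0.066 for Slc1a2, -0.20 to 0.031 for Glul, -0.39 to 0.30 for Aqp4, -0.23 to 0.26 for Gjb6, -0.0055 to 0.36 for Slc6a11 and -0.24 to 0.0061 for Slc4a4, while Slc1a3 stayed at 0.043 to 0.36 and Gja1 at 0.37 to 0.50. The count of all genes called in astrocytes, 2, became 49 with no filter, 6 with the replicate block, 11 with finer clusters, 37 with no doublet filter, 18 without the Myoc nuclei, 11 without the large nucleus, and 4 to 126 without 1 library. The 0 calls in other cell types became 4 with no filter, 1 with the replicate block and 0 to 5 without 1 library. The 2 calls in the whole library were lost without either pregnant library. Other members were added to them without either non-pregnant library, where the share of all genes called was not counted. The 2 calls of the interaction became 1 without the large nucleus and 0 to 1 without 1 library. The astrocyte share (0.75) had an adjusted p of 0.0694 with the replicate block, at 0.75, and ranged from 0.62 to 0.88 without 1 library. Replicate numbers are shared by the labels only. Deviations of same-numbered libraries from their group means correlated at 0.270 over the genes tested in astrocytes. With 2 libraries a group, the deviations of replicate 2 mirror those of replicate 1, so this single value cannot decide on a pairing. The block changed no call other than those given here. Of the shares at 2000 UMIs, that of Gja1 was 9.76 percentage points higher in pregnant astrocytes and kept its sign at 1000 UMIs, 4000 UMIs and full depth, at 6.08 to 9.98. The causes of these shifts were not tested. Precision was limited by 2 mice a group and by counts as low as 120 UMIs, those of Aqp4 in the astrocytes of non-pregnant replicate 1.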
